A study of Drosophila melanogaster with 25 samples.

Results

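The nuclear genes of the respiratory chain were taken as every gene row whose symbol starts with ND-, UQCR-, COX or ATPsyn, together with SdhA, SdhB, SdhC and SdhD. This rule found 77 of 17087 gene rows: 40 of complex I, 4 of complex II, 8 of complex III, 10 of complex IV and 15 of complex V. The rule reads symbols alone and leaves out the rows that the mitochondrial genome encodes. Single Drosophila neurons had been sorted from adult brains by fluorescence. In the 10X Chromium libraries the flies carried TH-GAL4 and Clk856-GAL4 together, and 1 library each was made at ZT14 and ZT02, where ZT is the time in hours after lights on in a light and dark cycle. In the CEL-seq2 libraries TH-GAL4 alone drove EGFP, and 4 libraries each were made at ZT02, ZT06, ZT14, ZT18 and ZT22 and 3 at ZT10. Both sexes were pooled, no genotype or drug was varied, and TH-GAL4 and Clk856-GAL4 also label some neurons that are neither dopaminergic nor clock neurons.

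The respiratory chain sits in the inner mitochondrial membrane. Complexes I and II pass electrons from NADH and succinate to ubiquinone, complex III passes them on to cytochrome c, complex IV passes them to oxygen, and complex V, the ATP synthase, uses the proton gradient that complexes I, III and IV build. Most subunits are encoded in the nucleus and imported, and neurons spend much of the ATP made in this way on ion pumping and synaptic transmission.

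Clock cells were 10X cells with at least 3 UMIs summed over tim, vri, Clk and cry and at most 1 of Vmat, and dopaminergic neurons (DANs) were cells with at least 5 UMIs of Vmat and 1 of DAT. A UMI stands for 1 captured transcript. At ZT02 and ZT14 there were 509 and 517 clock cells and 1305 and 891 DANs, and 1962 of the 5184 cells of both libraries were in neither class. The 1516 CEL-seq2 cells held 1155 cells under the DAN rule and 5 under the clock rule, so clock cells were read from 10X alone. No barcode was shared by the 10X libraries, which held 19834146 UMIs at ZT02 and 21264133 at ZT14, and the 23 CEL-seq2 libraries held 548486 to 1197517 UMIs. Summed over ple, Vmat, DAT and Ddc, clock cells had 9.30 and 10.2 TP10K (UMIs per 10000 UMIs) at ZT02 and ZT14. DANs had 385.3 and 383.7 TP10K. Vmat and DAT are part of the class rules, so this gap does not test the labels. A list of clock markers, which includes genes of the clock rule, is not independent either. At ZT02 and ZT14 it summed to 60.005 and 198.2 TP10K in clock cells and to 23.99 and 23.80 in DANs. Library 13 of ZT18 stood below the other ZT18 libraries for the summed respiratory chain genes, and results that rest on it are given with and without it.

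Transcripts of the 77 genes took up similar shares of the RNA in both cell classes. Summed over the genes, clock cells held 244.9 TP10K at ZT02 and 225.9 at ZT14, and DANs held 285.2 and 247.0. The middle 50% of clock cells lay between 183 and 302 TP10K at ZT02, and that of DANs between 180 and 325, so single cells of the classes overlapped widely. Each method captures the 3′ end of a transcript once, so no scaling for gene length was applied when genes are set side by side in TP10K. Complex V gave the largest share of the genes' UMIs in clock cells (36.0%) and in DANs (34.0%). Complex I, with 40 of the 77 symbols, gave 27.8% in clock cells and 29.0% in DANs, and complex II gave 3.37% and 3.72%.

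The levels within a complex were uneven. In complex V, ATPsynC, which forms the rotating c ring of the membrane part, had 19.6 TP10K in clock cells and 20.8 in DANs, and was the highest gene of the set in both. ATPsynF came next in DANs, with 7.66 TP10K in clock cells and 10.3 in DANs, and ATPsynG, also a subunit of the membrane part, came next in clock cells, with 8.61 and 8.40. COX7A had 9.35 TP10K in clock cells and 13.1 in DANs, COX6B 9.48 and 11.2, and COX4 9.02 and 10.8. These are nuclear subunits that surround the mitochondrially encoded core of cytochrome c oxidase. In complex III, UQCR-14 had 6.03 TP10K in clock cells and 6.64 in DANs, UQCR-Q 5.49 and 5.66, and UQCR-C2, a core protein on the matrix side, 4.11 and 4.81.

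Complexes I and II stood lower per gene. ND-B22 had 3.13 TP10K in clock cells and 4.63 in DANs, ND-MLRQ 4.20 and 4.19, and ND-PDSW 3.10 and 3.60. ND-B22 and ND-PDSW are accessory subunits of the membrane arm of complex I, and the mammalian counterpart of ND-MLRQ is now counted with complex IV. SdhB, the iron-sulphur subunit of succinate dehydrogenase, had 2.34 TP10K in clock cells and 3.06 in DANs. Its membrane anchors SdhC and SdhD had 2.60 and 1.73 TP10K in clock cells and 2.89 and 2.49 in DANs. Among the tested genes the median level in DANs was 2.36 TP10K for complex I, 2.69 for complex II, 4.31 for complex III, 7.60 for complex IV and 7.83 for complex V.

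Of the 77 genes, 61 passed the filter on low counts in at least 1 comparison, 59 passed in all of them, and 60 were tested in each. The other 16 had at most 68 UMIs in 10X and 7 in CEL-seq2. They included the 14 paralogs whose symbol is that of another gene of the set plus L, L1 or L2: ND-20L, ND-24L, ND-49L, ND-51L1, ND-51L2, ND-B14.5AL, UQCR-11L, UQCR-14L, COX4L, COX5BL, COX7AL, ATPsynCF6L, ATPsynGL and ATPsynbetaL. Together these paralogs had 212 UMIs in the 10X cells, against 299020 UMIs for the genes they are named after. UQCR-14L and ATPsynGL had no UMI in any cell. Reads shared by a paralog and its partner could not be told apart from the counts.

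The methods ranked the genes only in part alike. In DANs the 10X level was a median of 2.69 times the CEL-seq2 level over 59 genes, from 0.259 for ND-AGGG to 9.53 for ND-18, and 51 of the 59 ratios were above 1 (Spearman rho = 0.542 across genes, a description). UQCR-14 had 25601 UMIs in 10X and 0 in CEL-seq2, whereas ND-MNLL had 19 in 10X and 1644 in CEL-seq2. Levels were therefore compared within a method only.

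**Figure D1:**
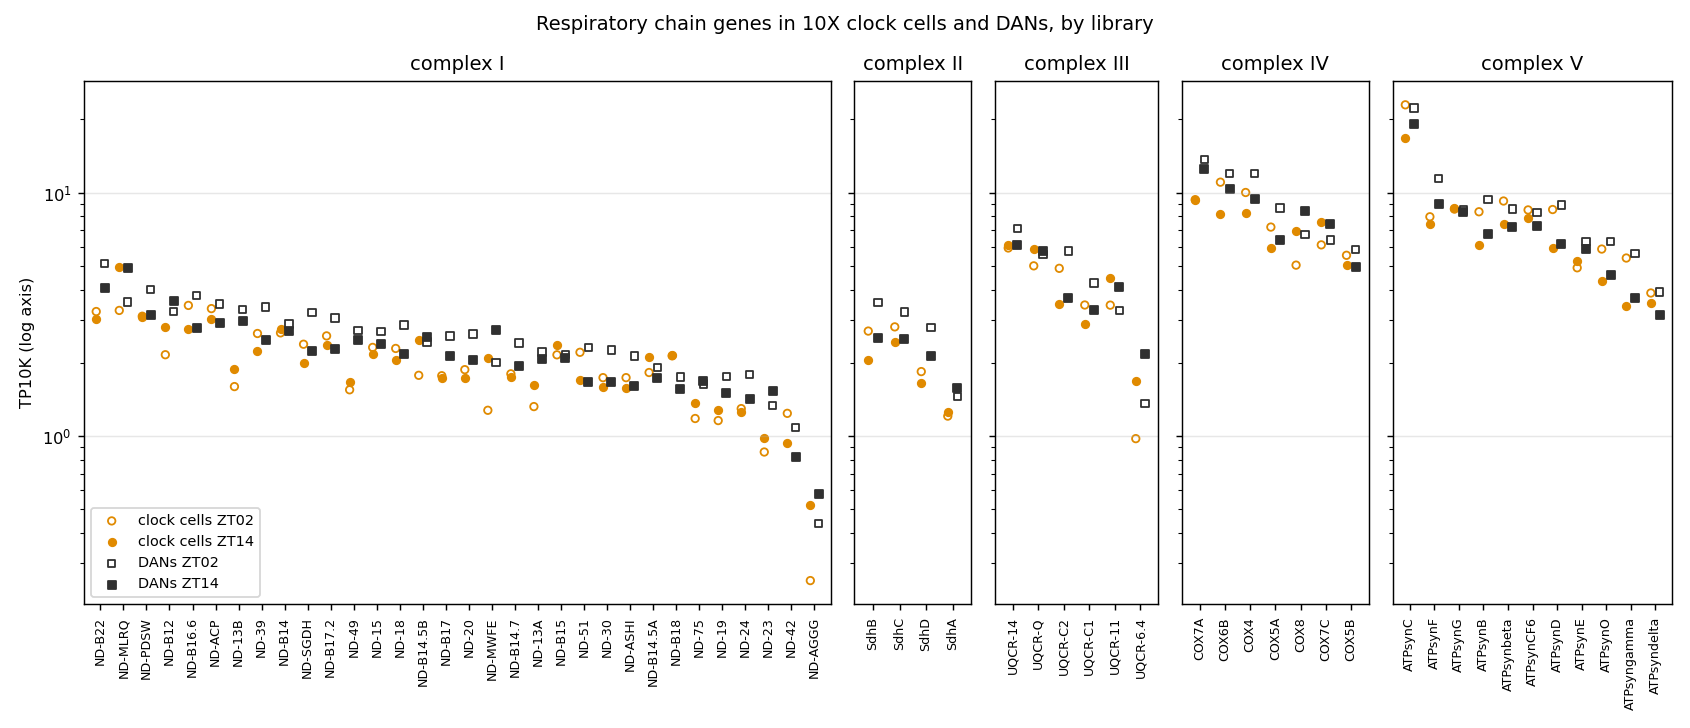
Levels of the 60 genes tested in 10X clock cells and DANs, by complex, in TP10K on a log axis, with 1 point per cell class and library. ATPsynC is the highest gene in both classes, and ND-13B, ND-49 and ND-23 of complex I stand lower in clock cells than in DANs in both libraries.

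The first comparison asked whether clock cells and DANs of the same libraries differ in these genes. A gene was called higher or lower at an adjusted p under 0.05 where the higher level was also at least 25% above the other. Most did not pass the test, and calls were no more frequent than over all genes. Those that passed were lower in clock cells, and none kept its call under every alternative. They belong to the Q module of complex I, the part that hands electrons to ubiquinone, a grouping that was not tested. In all, 0 genes were higher and 3 lower of 60, where 11.0% of all 7747 genes tested were higher and 7.13% lower. The 3 lower genes are therefore 5% of those tested, near the background of lower calls. The median log2 fold change was -0.10 for the 60 genes and 0.01 for all genes. At an unadjusted p under 0.05 stood 14 of the 60, against 3024 of all 7747.

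ND-13B (FBgn0047038, chr3L:10693184-10694108 in dm6), a small subunit of the matrix arm, had 1.60 TP10K at ZT02 and 1.89 at ZT14 in clock cells, against 3.30 and 2.98 in DANs. Both clock values lay below both DAN values, and the gene was 1.69-fold lower in clock cells (log2 fold change -0.76, SE 0.12, adjusted p = 0.0401, edgeR's quasi-likelihood test with Benjamini-Hochberg adjustment). ND-49 (FBgn0039909, chr4:568296-571554), a core subunit beside the ubiquinone site, had 1.55 and 1.67 TP10K in clock cells at ZT02 and ZT14, against 2.72 and 2.47 in DANs. The classes did not overlap, and the gene was 1.51-fold lower in clock cells (log2 fold change -0.60, SE 0.10, adjusted p = 0.0427, the same test). ND-23 (FBgn0017567, chr3R:15836048-15837117), which holds iron-sulphur clusters, had 0.860 and 0.984 TP10K in clock cells and 1.33 and 1.53 in DANs. Here too the classes did not overlap, with a 1.45-fold lower level in clock cells (log2 fold change -0.54, SE 0.10, adjusted p = 0.0447, the same test).

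Of the 8 tested genes of the Q module 3 were lower in clock cells and of the 6 of the N module, which takes electrons from NADH, and the 18 of the membrane arm none passed. Complexes II to V had no call. By TP10K alone, 41 of the 60 genes were lower in clock cells than in DANs in both libraries and 6 were higher in both. This was not counted over all genes, which also lay below 0 on that scale. With library totals alone the median log2 fold change was -0.08 over all genes and -0.19 over the 60. The summed level in clock cells was 0.859 times that in DANs at ZT02 and 0.915 times at ZT14, but when TP10K was averaged over cells the ratio was 0.916 at ZT02 and 1.02 at ZT14, so the direction at ZT14 turned with the weight of cells. Cells of 5000 to 15000 UMIs, a window chosen after the data were seen, gave 0.885 and 0.970.

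None of the 3 calls remained in that window, when every cell was thinned to 1000 UMIs or under stricter class rules (0 of 60 called in each, with adjusted p from 0.0501 to 0.181 for the 3 genes). Their log2 fold changes stayed between -0.78 and -0.44 in these fits. For the 60 genes as a whole thinning turned the direction, with 39 above 0 and a median of 0.10, against 21 above 0 and a median of -0.10 without it. Clock cells were the deeper class, with a median of 9005 UMIs per cell against 7090.5 in DANs, and held more ribosomal protein transcripts, 1437 and 1378 TP10K against 926 and 798 in DANs at ZT02 and ZT14. The part of these in the result was not tested.

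Related lists gave few calls between clock cells and DANs. Among the 13 mitochondrially encoded subunits, mt:ND3, of complex I, was higher in clock cells (log2 fold change 1.18, SE 0.10, adjusted p = 0.0224, the same test) and the other 12 did not pass. Of 12 glycolytic genes tested only Ldh, lactate dehydrogenase, passed (log2 fold change 4.10, SE 0.40, adjusted p = 0.0248), with 0.250 and 0.103 TP10K in clock cells and 0.011 and 0.010 in DANs. Of its UMIs in clock cells, 106 of 110 at ZT02 and 37 of 56 at ZT14 lay in the 43 and 24 cells rich in the peptide Pdf that are described next, and the other clock cells had 0.010 and 0.037 TP10K. Of 13 genes of the tricarboxylic acid (TCA) cycle and pyruvate dehydrogenase and of 10 chain subunits with other symbols none passed. Of 5 regulators of mitochondrial biogenesis, mtSSB, the single-strand binding protein of mitochondrial DNA, was higher in clock cells (log2 fold change 0.80, SE 0.13, adjusted p = 0.0395).

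Within the clock cells, those with at least 100 UMIs of Pdf, the neuropeptide of the ventral lateral clock neurons, had a lower summed level of respiratory chain transcripts in both libraries and higher levels of most glycolytic enzymes. Calls of single respiratory chain genes were about as frequent as over all genes. There were 43 and 24 Pdf cells at ZT02 and ZT14 and 466 and 493 other clock cells. The 77 genes summed to 140.8 TP10K at ZT02 and 119.3 at ZT14 in Pdf cells, against 259.9 and 232.8 in the other clock cells. Pdf alone made up 31.2% and 26.5% of the UMIs of Pdf cells, which lowers every other gene in TP10K. With the Pdf row left out of the denominator, a choice made after the data were seen, the sums were 204.7 and 162.4 TP10K in Pdf cells and 259.9 and 232.9 in the other clock cells, so the ratios moved to 0.788 and 0.697, against 0.542 and 0.512 with it.

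With TMM factors, which take such a dominant gene into account, 7 of the 60 genes were lower in Pdf cells and 0 higher, where 11.5% of all 6901 genes were lower and 5.26% higher. The 7 genes are 11.7% of those tested, close to that background. Of the 60 log2 fold changes 58 were below 0, with a median of -0.47, against -0.05 over all genes, which is a description without a test. At an unadjusted p under 0.05 stood 19 of the 60, against 1769 of all 6901.

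COX4 (FBgn0032833, chr2L:19958713-19960065), which regulates and stabilises cytochrome c oxidase, had 4.81 TP10K at ZT02 and 2.88 at ZT14 in Pdf cells, against 10.8 and 8.56 in the other clock cells. Both Pdf values were below both others, but TP10K here and for the next genes include the Pdf row, which lowers every other gene. The fitted log2 fold change was -0.89 (SE 0.28, adjusted p = 0.0200, edgeR's quasi-likelihood test with Benjamini-Hochberg adjustment). ND-23 had 0.236 and 0.454 TP10K in Pdf cells, from 13 and 15 UMIs, against 0.949 and 1.02 in the other clock cells. It had the largest shift of the called genes (log2 fold change -1.11, SE 0.35, adjusted p = 0.0199). ND-20 (FBgn0030718, chrX:15985473-15986808), which carries the last iron-sulphur cluster before ubiquinone, had 0.689 and 0.696 TP10K in Pdf cells and 2.04 and 1.79 in the others. The groups did not overlap on this scale (log2 fold change -0.99, SE 0.31, adjusted p = 0.0154).

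ND-51 (FBgn0031771, chr2L:6060842-6062757), the subunit that binds NADH, had 1.03 and 0.575 TP10K in Pdf cells and 2.38 and 1.77 in the other clock cells (log2 fold change -0.89, SE 0.31, adjusted p = 0.0353). ND-39 (FBgn0037001, chr3L:20492082-20497084), an accessory subunit of the Q module, had 1.11 and 0.938 TP10K in Pdf cells and 2.86 and 2.32 in the others (log2 fold change -0.86, SE 0.30, adjusted p = 0.0380). In both genes every Pdf value was below every other value on this scale. With library totals alone the median log2 fold change over all 6901 genes was -0.54, so such separation was not counted as support. Of complex V, ATPsynD, of the stalk, and ATPsynbeta, the catalytic subunit, were also lower in Pdf cells (log2 fold changes -0.83 and -0.81, adjusted p = 0.0377 and 0.0380). ATPsynbeta had 4.63 and 2.75 TP10K in Pdf cells and 9.90 and 7.73 in the other clock cells. Counted by complex, 4 of 32 tested genes of complex I, 0 of 4 of complex II, 0 of 6 of complex III, 1 of 7 of complex IV and 2 of 11 of complex V were lower.

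Genes around the chain had few calls, near the 11.5% of all genes that were lower, and DESeq2 called none in these lists. Of the 13 tested genes of the TCA cycle and pyruvate dehydrogenase 2 were lower in Pdf cells and 0 higher (median log2 fold change -0.49), namely Fum1, fumarase (-1.32, SE 0.35, adjusted p = 0.0038), and Scsalpha1 of succinyl-CoA synthetase (-0.84, SE 0.30, adjusted p = 0.0481). Of 9 tested chain subunits with other symbols, levy, a subunit of complex IV, was lower (-0.78, SE 0.28, adjusted p = 0.0486). None of the 11 tested mitochondrially encoded subunits passed, and their median was 0.17.

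Glycolytic genes were higher. Of 12 tested glycolytic genes 9 were higher in Pdf cells and 0 lower, with a median log2 fold change of 1.38 and all 12 above 0. Pfk, the committed step of glycolysis, had 2.77 and 3.90 TP10K in Pdf cells at ZT02 and ZT14, against 1.09 and 1.09 in the other clock cells (log2 fold change 2.06, SE 0.30, adjusted p = 1.6e-07). Ldh, which turns pyruvate into lactate, had 1.92 and 1.12 TP10K in Pdf cells, from 106 and 37 UMIs, and 0.010 and 0.037 in the others, from 4 and 19 UMIs (log2 fold change 6.35, SE 0.42, adjusted p = 5.7e-18). Pdf cells were above the other clock cells in both libraries for both genes. Tpi, Pgk, Ald1, Gapdh1, Gapdh2, Eno and Pglym78 were higher by log2 fold changes of 0.84 to 1.75. Between 6 and 9 glycolytic genes were called under every alternative. Also higher in Pdf cells was srl, the fly counterpart of the PGC-1 coactivators of mitochondrial biogenesis (log2 fold change 1.81, SE 0.34, adjusted p = 3.2e-05), with 0.472 and 0.908 TP10K against 0.229 and 0.295 in the other clock cells.

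**Figure D2:**
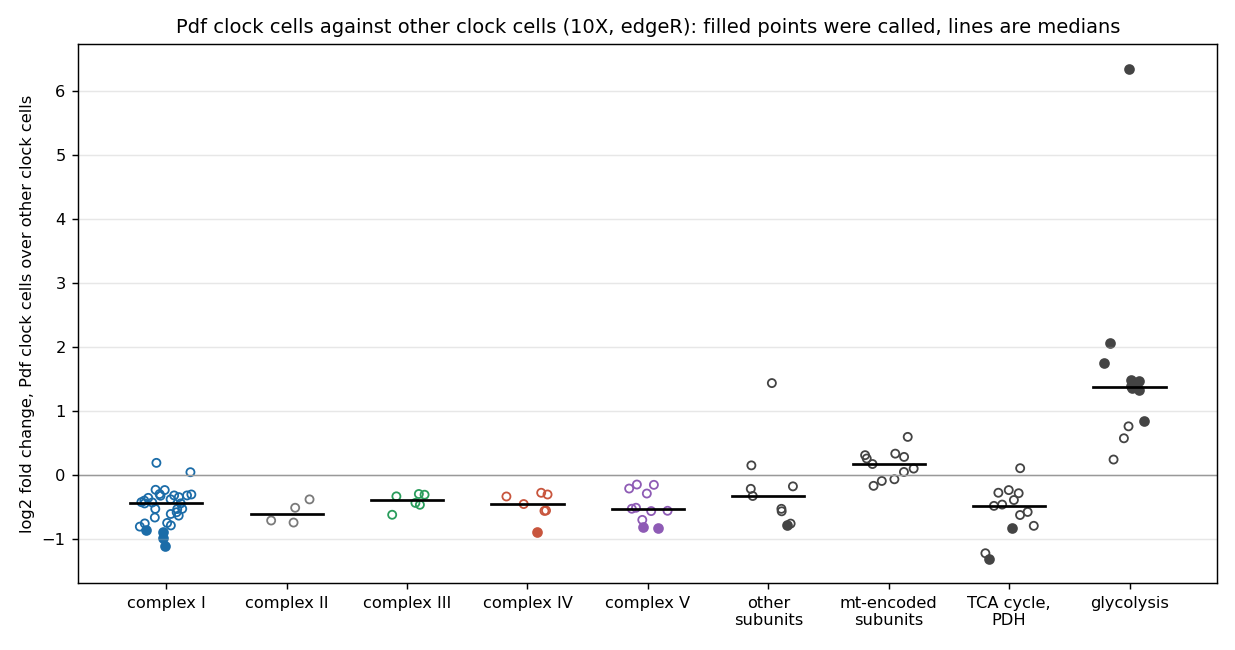
Log2 fold changes of Pdf clock cells over other clock cells in 10X, 1 point per gene, by complex and for related lists; filled points were called and black lines are medians. The 60 genes of complexes I to V centre at -0.47 and the 12 glycolytic genes at 1.38.

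The count of genes lower in Pdf cells depended on the tool and the scaling. DESeq2 called 0 of 60, with 5 at an unadjusted p under 0.05, against 787 of all 6901 genes. Library totals without TMM factors called 39, where 18.5% of all genes were lower and their median was -0.54. The median of the 60 genes relative to that of all genes was -0.41 with TMM factors and -0.40 with library totals alone. Cells of 8000 to 20000 UMIs, a window chosen after the data were seen, gave 4 calls and thinning gave 2, with medians for the 60 genes of -0.53 and -0.66, against -0.09 and -0.22 over all genes. Pdf cells were deeper than the other clock cells, with medians of 13898 and 13518 UMIs against 8093.5 and 10039. The cholinergic markers ChAT and VAChT summed to 0.091 and 0.121 TP10K in Pdf cells, against 5.14 and 4.31 in the other clock cells. Of 5 glial markers repo, alrm, Gs2 and Eaat1 were at 0 in Pdf cells and nrv2 had 0.272 and 0.091 TP10K, against 1.30 and 3.32 for the list in the other clock cells. The octopaminergic or tyraminergic markers had 3.63 and 1.18 TP10K in Pdf cells and 4.54 and 2.81 in the others. The part of these other neurons and of depth in the result was not tested.

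No gene was called between clock cells with and without VGlut, the vesicular glutamate transporter. Cells with at least 3 VGlut UMIs (243 at ZT02 and 228 at ZT14) were set against those with at most 1 (258 and 281). Their sums were 261.3 and 232.1 TP10K, against 229.7 and 220.7 in clock cells without VGlut, a group that holds the Pdf cells. Without the Pdf row, clock cells without VGlut had 248.1 and 227.6. None of the 60 genes was called (edgeR), where 3.56% of all 7112 genes were higher and 11.2% lower. None of the 60 had an unadjusted p under 0.05, against 1727 of all 7112. DESeq2 called 0, and the log2 fold changes ran from -0.15 to 0.29 with a median of 0.05.

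Other groups of cells bounded by 1 marker also varied. Clock cells with at least 10 UMIs of the peptides CCHa1 or Trissin summed to 261.1 and 237.8 TP10K at ZT02, and DANs with a UMI of Fer2, at least 3 of Nos or VGlut, or at least 10 of Ms or AstCC summed to 246.4 to 290.7. The 7 DANs with at least 10 UMIs of the peptide NPF at ZT02 stood above all of these at 602.6 TP10K, from 12462 UMIs in all. At ZT14 the same groups, without NPF, lay between 180.6 and 226.5 TP10K, with Trissin, from 7 cells, the lowest, and Pdf cells at 119.3 below all of them. These sums include the Pdf row and carry no test.

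The 10X libraries also held 2 times of day, with 1 library each, so that no test was possible and intervals (exact, 95%) cover counting error only. Summed over cells, respiratory chain transcripts took a smaller share at ZT14 than at ZT02 in both classes, with a ZT14 over ZT02 ratio of 0.922 (0.915 to 0.930) in clock cells and 0.866 (0.861 to 0.871) in DANs. Clock cells were deeper at ZT14, with a median of 10154 UMIs against 8300 at ZT02. In clock cells of like depth from 3000 to 24000 UMIs the levels were close. For 3000 to 6000 UMIs they were 243.2 TP10K at ZT14 against 244.5 at ZT02. They were 266.9 against 265.0 for 6000 to 12000 and 204.0 against 205.2 for 12000 to 24000. Without the Pdf row the deepest of these had 207.7 TP10K at ZT14 against 232.4 at ZT02. In that range the clock cells other than Pdf cells had 210.5 against 241.6. Below 3000 UMIs, with 43 clock cells at each time, the level was 201.5 TP10K at ZT14 against 229.2 at ZT02. DANs were lower at ZT14 within each range from 3000 UMIs, with 186.4 against 264.2, 264.8 against 294.9 and 253.4 against 290.1 TP10K. Below 3000 UMIs they had 185.9 against 237.8. Complex V was low at ZT14 in both, with 76.7 TP10K at ZT14 against 94.2 at ZT02 in clock cells and 81.2 against 99.4 in DANs, ratios of 0.814 and 0.817. For complex I the classes parted, with ratios of 1.03 (1.01 to 1.05) in clock cells and 0.883 (0.873 to 0.892) in DANs.

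Of 60 genes, 8 were at least 25% higher at ZT14 than at ZT02 in clock cells, and 11 were lower by the same fold, where 22.2% of 5989 genes of at least 100 UMIs were higher and 15.4% lower. In DANs 5 were higher and 25 lower, where 12.3% of 6337 genes were higher and 19.3% lower. The median ratio was 0.939 in clock cells and 0.846 in DANs, against 1.01 and 0.959 over all genes. UQCR-C2 had 3.48 TP10K at ZT14 and 4.89 at ZT02 in clock cells (ratio 0.712, 0.669 to 0.758), and 3.70 and 5.77 in DANs (ratio 0.642, 0.613 to 0.671). ATPsyngamma, the central rotor stalk of ATP synthase, had ratios of 0.634 in clock cells and 0.654 in DANs, and ATPsynD of 0.693 and 0.692.

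Beyond counting error, 27 of the 60 genes were below 1 in both classes and 9 were above 1 in both: ND-23, ND-AGGG, ND-B12, ND-MLRQ, ND-MWFE, UQCR-11, UQCR-6.4, COX7C and COX8. Another 4, ND-13A, ND-13B, ND-B14.5A and ATPsynE, were above 1 in clock cells and below 1 in DANs. These counts were not made over all genes, so no background is given for them. ND-AGGG, an accessory subunit of complex I, had 0.521 TP10K at ZT14 and 0.255 at ZT02 in clock cells (ratio 2.04) and 0.579 and 0.438 in DANs (ratio 1.32). UQCR-6.4, a small subunit of complex III, had 1.69 TP10K at ZT14 and 0.976 at ZT02 in clock cells (ratio 1.73) and 2.17 and 1.36 in DANs (ratio 1.60). ND-MWFE had ratios of 1.65 and 1.36 in clock cells and DANs, ND-MLRQ of 1.51 and 1.39 and COX8 of 1.38 and 1.246. ND-23 was nearest to 1, with 1.14 (1.001 to 1.31) and 1.15 (1.06 to 1.24). The mitochondrially encoded rows moved more than any complex, with 145.6 TP10K at ZT14 against 52.2 at ZT02 in clock cells and 113.9 against 54.1 in DANs. Time of day and library cannot be told apart here. The clock marker list, which includes genes of the class rule, summed to 198.2 TP10K at ZT14 and 60.005 at ZT02 in clock cells, and its part in the result was not tested.

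**Figure D3:**
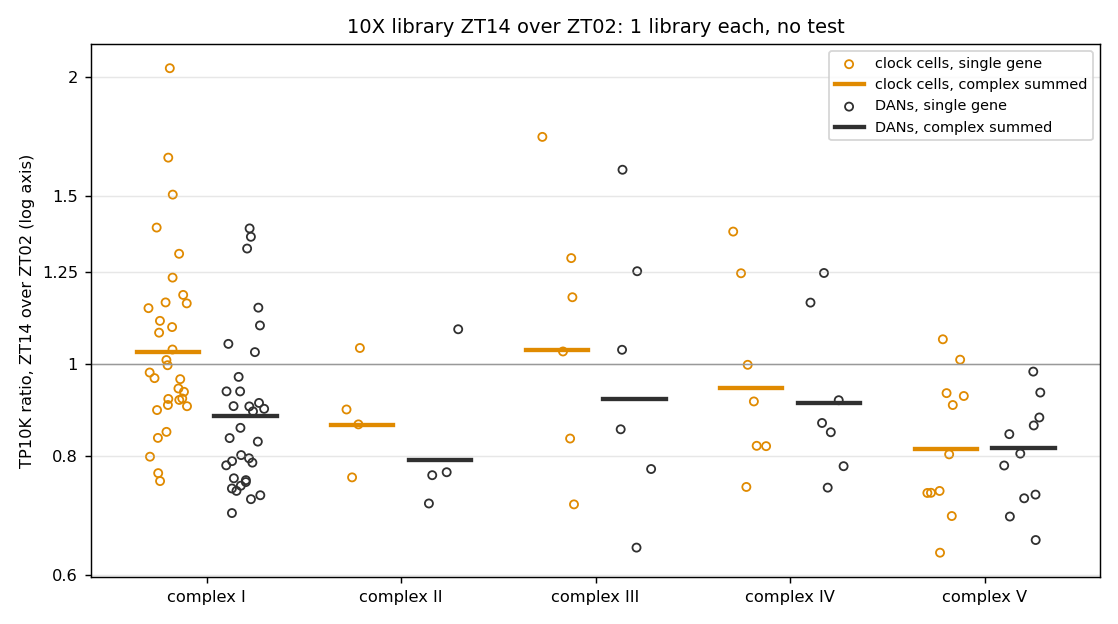
Ratio of TP10K at ZT14 over ZT02 in the 10X libraries on a log axis, for clock cells and DANs, by complex; points are single genes of the 60 and bars are complexes summed. Complex V lies at 0.814 and 0.817, and complex I at 1.03 in clock cells and 0.883 in DANs.

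In CEL-seq2 the time points had replicate libraries. Time points that share a code in the library titles were compared with each other: ZT14 with ZT02, 12 h apart, ZT18 with ZT10, 8 h apart, and ZT22 with ZT06, 16 h apart. The labels do not say that libraries came from separate flies, so p measures the spread between libraries, which may be technical. The 77 genes had summed levels (mean ± SD in TP10K, n = 3 at ZT10 and 4 elsewhere) of 127.5 ± 9.4 at ZT02, 96.6 ± 8.0 at ZT06, 96.3 ± 0.9 at ZT10, 145.7 ± 10.1 at ZT14, 151.7 ± 30.9 at ZT18 and 103.2 ± 5.8 at ZT22. Sums were thus highest at ZT14 and ZT18, and the libraries of ZT06 and ZT22 stayed at or below 109.4. Each title code has its own pair of time points, so across codes time of day and code cannot be told apart. At ZT18, libraries 14, 15 and 16 held 163.2 to 170.0 TP10K and library 13 held 105.5.

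**Figure D4:**
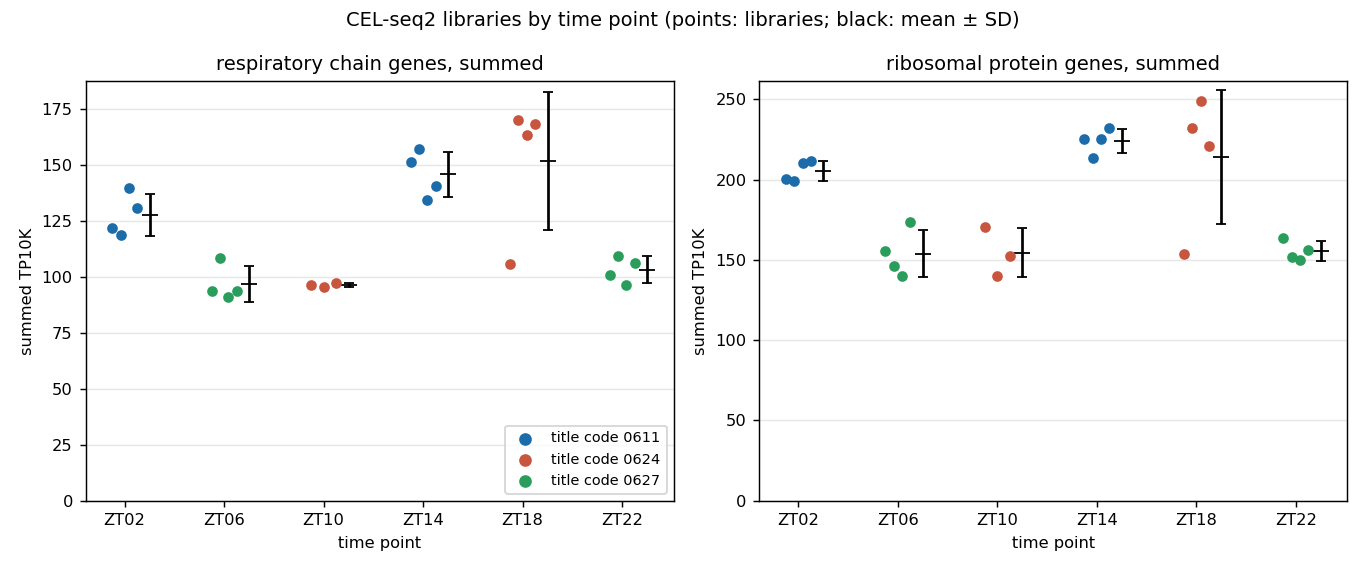
Summed TP10K of the 77 respiratory chain genes (left) and of the ribosomal protein genes (right) in each of the 23 CEL-seq2 libraries by time point, coloured by title code, with mean ± SD in black. Means are highest at ZT14 and ZT18 in both panels, and library 13 of ZT18 lies at 105.5 on the left. Across codes, time of day and code cannot be told apart.

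The clearest difference in time was between ZT18 and ZT10. Of the 60 genes 29 were higher at ZT18 and 0 lower, a share of 48.3%, where 5.46% of all 6039 genes were higher and 3.74% lower. The median log2 fold change of the 60 was 0.55, against 0.06 over all genes, and 58 of 60 were above 0. At an unadjusted p under 0.05 stood 44 of the 60, against 1501 of all 6039. The calls were 14 of 33 in complex I, 0 of 4 in complex II, 2 of 5 in complex III, 6 of 7 in complex IV and 7 of 11 in complex V. In 19 of the 60 genes every ZT18 library was above every ZT10 library. Without library 13 this held for 49 of the 60. That library was set apart for low values of these same genes, so the rise follows from the choice and is no support. Neither count was made over all genes tested, so no background is given for them.

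UQCR-C2 (FBgn0250814, chr3L:16584124-16586111) had 1.79, 3.0, 3.20 and 3.34 TP10K in ZT18 libraries 13 to 16 and 1.10, 1.04 and 1.29 in ZT10 libraries 17 to 19. The groups did not overlap, and the gene was 2.42-fold higher at ZT18 (log2 fold change 1.27, SE 0.17, adjusted p = 7.9e-05, edgeR's quasi-likelihood test with Benjamini-Hochberg adjustment). COX4 had 8.08, 20.03, 15.2 and 17.96 TP10K at ZT18 against 6.48, 6.66 and 5.87 at ZT10. Library 13 was nearest to ZT10 and still above it (log2 fold change 1.23, SE 0.20, adjusted p = 4.0e-04). COX8 (FBgn0263911, chr3L:21538859-21539447), another small subunit of complex IV, had 1.75, 3.47, 3.40 and 4.08 TP10K at ZT18 and 1.42, 1.18 and 1.37 at ZT10, again without overlap (log2 fold change 1.23, SE 0.21, adjusted p = 7.1e-04).

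ND-39 had 1.28, 3.34, 2.82 and 2.71 TP10K at ZT18 against 1.15, 1.24 and 0.838 at ZT10 (log2 fold change 1.20, SE 0.23, adjusted p = 0.0020). ND-B14.7 (FBgn0034576), of the membrane arm of complex I, had 0.581, 1.08, 1.35 and 1.36 TP10K at ZT18 and 0.447, 0.609 and 0.424 at ZT10, so that library 13 lay within the ZT10 range (log2 fold change 1.10, SE 0.27, adjusted p = 0.0107). ATPsynC, the c ring subunit, had 8.46, 13.2, 12.8 and 13.2 TP10K at ZT18 against 8.47, 8.32 and 8.56 at ZT10 (log2 fold change 0.47, SE 0.14, adjusted p = 0.0361). Here library 13 was at the ZT10 level and the other 3 were not. The lowest of the 60 was ND-B22, with 0.676, 0.813, 0.963 and 0.902 TP10K at ZT18 and 0.923, 1.02 and 1.03 at ZT10 (log2 fold change -0.27, not called).

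Chain subunits outside the symbol rule gave the same picture at ZT18, with 6 of 7 tested higher: blw, sun, RFeSP, Cyt-c1, levy and cype. Of 11 mitochondrially encoded subunits only mt:ATPase6 was higher and the median was -0.29. Of 5 tested TCA cycle genes Mdh2 was higher, and of 11 glycolytic genes 3 were higher and 1 lower. Several of these list genes stand under older symbols in the CEL-seq2 columns, so fewer were tested than in 10X.

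Other features moved with the ZT18 result. Ribosomal protein genes summed to 154.0 TP10K in library 13 of ZT18 and to 220 to 249 in the other ZT18 libraries, against 140 to 170 at ZT10. ChAT, of cholinergic neurons, had 10.7, 42.2, 36.5 and 18.3 TP10K at ZT18 against 4.72, 3.09 and 2.82 at ZT10, and VAChT was at 0 in CEL-seq2. ChAT lies on chromosome arm 3R, where 15 of 20 genes tested within 200 kb of it were higher at ZT18. The median log2 fold change in that window was 5.55. None of the respiratory chain genes tested lies within that window. The nearest is ATPsynD, 377 kb away (log2 fold change 0.91). Calls came from 5 of 11 tested genes on 2L, 4 of 11 on 2R, 7 of 12 on 3L, 10 of 13 on 3R, 0 of 2 on chromosome 4 and 3 of 11 on X. The share of all genes called on each arm was not counted, so differences between arms cannot be read from these counts. The dopaminergic markers summed to 85.1 to 135 TP10K at ZT18 and 108 to 153 at ZT10. Over DANs alone 24 of 60 genes were higher and 0 lower. The part of ribosomal genes, of other neurons and of what raised the genes around ChAT in the result was not tested.

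How many genes were called between ZT18 and ZT10 depended on the spread that was used. With only the libraries of these 2 time points in the fit, 1 gene, UQCR-C2, was called, although the median log2 fold change was 0.52. Leaving out 1 library at a time gave 16 to 36 calls, with 36 without library 13 of ZT18 and 16 without library 18 of ZT10, and 57 to 59 genes above 0.

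**Figure D5:**
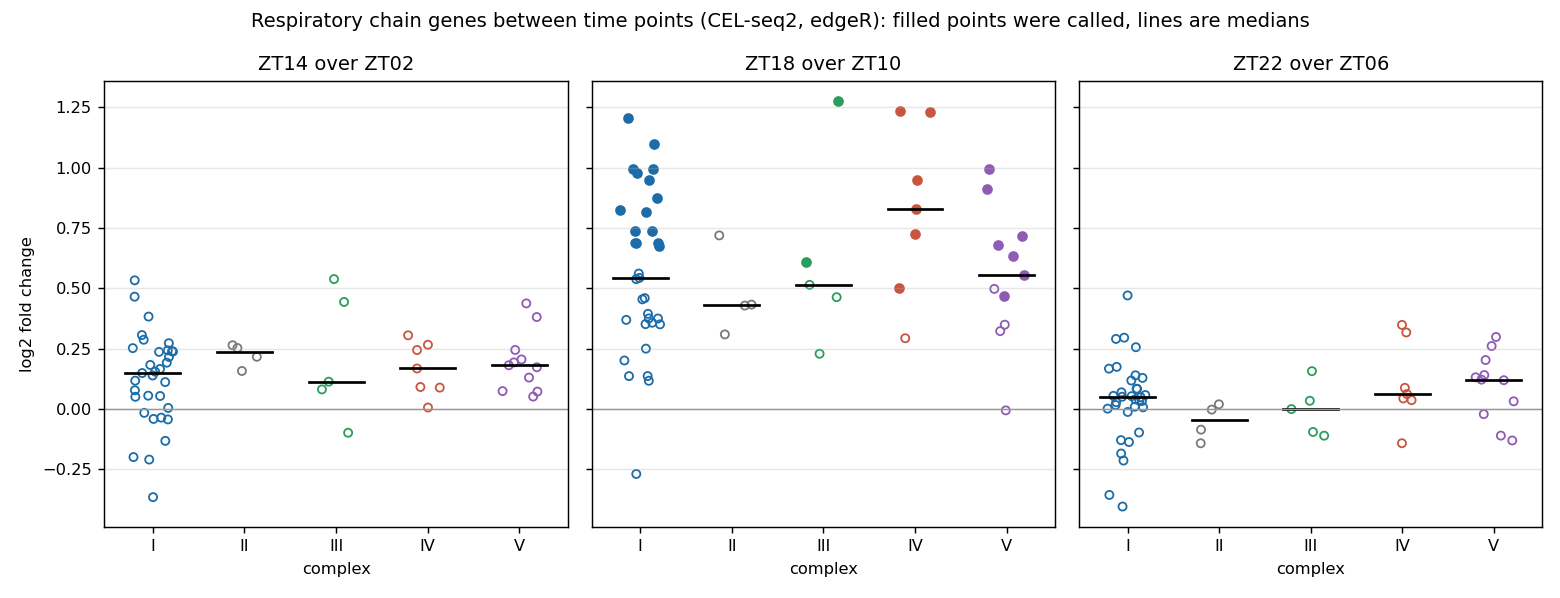
Log2 fold changes of the 60 tested genes between CEL-seq2 time points of 1 title code, by complex; filled points were called and lines are medians. Calls are seen between ZT18 and ZT10 alone, where 29 genes were higher.

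Between ZT14 and ZT02, and between ZT22 and ZT06, none of the 60 genes was called by edgeR or DESeq2. At ZT14 the summed level was 1.14 ± 0.12 times that at ZT02, and the median log2 fold change was 0.17. Of all 6039 genes tested, 0% were called higher and 0.0166% lower. At an unadjusted p under 0.05 stood 7 of the 60, against 376 of all 6039. UQCR-C2 was the first of the 7 (log2 fold change 0.54, SE 0.16, adjusted p = 0.378). At ZT22 the summed level was 1.07 ± 0.11 times that at ZT06, with a median of 0.04. Of all genes, 0.182% were called higher and 0.0166% lower. At an unadjusted p under 0.05 stood 4 of the 60, against 480 of all 6039. The corresponding ratio of ZT18 over ZT10 was 1.57 ± 0.32. Whether the 3 contrasts differ was not tested. In DANs alone the CEL-seq2 ratio of ZT14 over ZT02 was 1.13 ± 0.13 and the 10X ratio, which has no replicate, was 0.866.

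A single test over all 23 libraries, for a 24 h rhythm with the title code as a factor, called none of the 60 genes, where 0.122% of all 5753 genes were called. At an unadjusted p under 0.05 stood 20 of the 60 in edgeR, against 774 of all 5753. DESeq2 called 2 of the 60 and 64 of all 5753. COX7C, of complex IV, came nearest (peak to trough 1.41-fold, adjusted p = 0.0837). UQCR-C2 had the largest fitted peak to trough among the 60, 1.79-fold, and did not pass (adjusted p = 0.156).

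The genes varied together from library to library. The level of each of the 60 genes, set against the summed level of the rest over the 23 CEL-seq2 libraries, had a median Pearson r of 0.745, with all 60 above 0. Within time points, after each time point's mean was removed, the median was 0.662 with 56 above 0. The 3424 other genes of at least 500 UMIs had medians of 0.0068 and 0.096. These r are descriptions over 23 libraries that share depth and capture with the sum.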

How the data were processed

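The deposited tables hold raw UMI counts, which the authors made with zUMIs for CEL-seq2 and Cell Ranger 6.0.2 for 10X on dm6, after their filters on cells and a doublet caller for 10X. A further 2325 columns were not used, nor were 91 spike-in rows (1.43% of CEL-seq2 UMIs). Counts were summed per cell class and library and tested with edgeR 4.0.16 in R 4.3.3 (TMM, filterByExpr, glmQLFTest), with the 10X library as a block. Called means an adjusted p under 0.05, Benjamini-Hochberg over all genes tested, and a fold of at least 1.25 (peak to trough of 1.5 for rhythms). SE is the log2 fold change over the square root of F. DESeq2 1.42.0 was an alternative, among those under "How the results depend on the processing". The scripts were tested on simulated data. Totals of 548486 to 1197517 UMIs per CEL-seq2 library and sums of 330423 UMIs or more in 10X set the precision. Coordinates are from BDGP6.54 (dm6). Members and lists were chosen with earlier results of these data known. Named were, per complex, the 3 highest genes in 10X DANs, the 5 called genes with the largest change per test and direction, L paralogs, genes without a UMI and list genes called between clock cells and DANs. Genes named beyond this, among them ATPsynD, ATPsynbeta, ATPsyngamma, UQCR-6.4, ND-MWFE, COX7C and the genes of other lists, were chosen after their values were seen. Python 3.11.15 was used elsewhere.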

Additional observations from a re-analysis of the deposited data

Results flagged for a closer look

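Of 115 groups of 4 CEL-seq2 libraries of 1 time point, 10 had 1 library apart from the others (Dixon's test, 95% critical value), where chance gives about 1 in 20. At ZT18, library 13 was low, at 105.5 TP10K summed over the respiratory chain genes against 163.2 to 170.0 in the others, at 38.8 against 58.6 to 60.6 for complex I, at 30.3 against 46.7 to 47.6 for complex V, at 0.981 against 2.17 to 2.35 for SdhC and at 8.46 against 12.8 to 13.2 for ATPsynC. At ZT06, library 3 was high, at 108.4 TP10K summed against 90.7 to 93.7, at 38.2 against 30.1 to 31.4 for complex V and at 11.6 against 8.67 to 9.01 for ATPsynC. At ZT02, ND-MLRQ had 5.50 TP10K in library 3 against 4.23 to 4.33 in the others, and UQCR-Q had 3.15 in library 1 against 2.55 to 2.60.

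Among 29 sums and genes compared between the 10X clock cells and DANs, 3 had ZT14 over ZT02 ratios on opposite sides of 1 beyond counting error. Complex I had 1.03 in clock cells and 0.883 in DANs, complex III had 1.03 and 0.919, and ND-13B had 1.18 and 0.903. The difference was not tested, since each time point had 1 library.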

How the results depend on the processing

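Of 145 recomputed counts and ratios, 111 kept their call or stayed within the limits set, 33 moved and 1 turned, and of 129 recomputed changes of single genes 99 kept their call, 30 lost it and 0 turned. Genes called were 3 between clock cells and DANs, and 0 with cells thinned to 1000 UMIs, with stricter class rules or in cells of 5000 to 15000 UMIs. Genes called between Pdf and other clock cells were 7, and 39 with library totals alone, 0 with DESeq2, 2 with thinning and 4 in cells of 8000 to 20000 UMIs. Between ZT18 and ZT10, 29 became 17 without a filter, 14 with cells thinned to 3000 UMIs, 1 with these 2 time points alone and 16 to 36 without 1 library. For the rhythm, 0 became 2 with DESeq2 or without the title code, and 0 to 1 without 1 library (1 without library 13 of ZT18). The summed ratio of clock cells to DANs (0.859 at ZT02, 0.915 at ZT14) was 0.916 and 1.02 as a mean over cells, 0.911 and 0.982 without mitochondrial, ribosomal protein and rRNA rows, 0.894 and 0.929 without the Pdf row and 0.885 and 0.970 in the window. For Pdf cells it was 0.519 at ZT02 without mitochondrial, ribosomal protein and rRNA rows, and 0.788 and 0.697 without the Pdf row. The 10X ZT14 over ZT02 ratio was 0.944 in clock cells and 0.846 in DANs as a mean over cells, 0.901 in clock cells without the Pdf row and 0.859 in DANs without mitochondrial, ribosomal protein and rRNA rows. The cause was not tested. A replicate block on library numbers called 0 genes for the rhythm, as without it; same-numbered libraries did not deviate together (r from -0.081 to 0.0267 over 8 pairs), so the numbers were not used as pairs. The UMI windows and the Pdf row were alternatives chosen after the data were seen.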
